A study of Mus musculus with 8 samples.

Results

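The 47 genes described here encode glucose carriers, the glycolytic enzymes, the pentose phosphate pathway, the pyruvate dehydrogenase complex, the TCA cycle and the serine and folate enzymes of one-carbon metabolism, together with the oxygen-regulated factor HIF1A. They were taken by gene symbol from a count table of 24259 symbols. A row of the given symbol was found for 46 of them, and 45 passed the filter on low counts that left 12744 genes to test. Aldoa had no row of that symbol, and Slc16a3 was below the filter.

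RNA was measured at day 3 after immunization in NP+IgDlowB220+ pre-GC B cells, that is, B cells that bind the hapten NP and are developing toward germinal centers (GCs), from draining lymph nodes of C57BL/6 mice. All recipients were CD45.1 mice without SAP (Sap-/-), had received OT-II T cells specific for ovalbumin, and were given NP-OVA with LPS in alum. In the HET group the helper OT-II T cells were CD4-Cre × Bcl6fl/+, and in the WT group they were CD4-Cre alone, so that both groups share the Cre and only the T cells of HET lack 1 Bcl6 allele. The sequenced B cells do not carry the deletion, and no targeted gene checks the group names here. Each group has 4 libraries of about 200 cells, sorted from 1 pool of recipients per group. P-values therefore measure only how far repeat sorts and libraries of 1 pool differ, and an effect of the pool cannot be told apart from that of the group. Which recipients went into a pool, and their age, are not given in the sources used here.

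Resting B cells burn little glucose. After antigen and T cell help they enlarge and divide, take up more glucose and amino acids, and pass carbon through glycolysis and mitochondria to supply ATP and biosynthesis. Serine and folate enzymes carry single carbon units to purines and thymidylate, and the pentose phosphate pathway makes ribose and NADPH. HIF1A and MYC are known to act on promoters of many glycolytic genes through the letters ACGTG or GCGTG and the E-box CACGTG, respectively.

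Total counts were 6652386 to 12559189 per library, and 3 counts stood for 0.241 to 0.455 CPM (counts per 1000000 counts after scaling). The 47 genes took 0.622% to 0.916% of all counts. B cell markers (a list of 8 that includes Ms4a1 and Cd79a) summed to 20934 to 22261 CPM in HET and 24089 to 26553 CPM in WT, with every marker detected. In T cell markers the sums were 238 to 430 CPM in HET and 160 to 321 CPM in WT. Cd4 was at no more than 0.76 CPM in any library, while Cd8a reached 57.1 CPM in HET and 34.2 CPM in WT. Antibody-secreting cell markers ranged from 223 to 1980 CPM in HET, highest in HET replicate 1, and from 187 to 419 CPM in WT. Myeloid markers were at 10.9 to 28.9 CPM in HET and 20.5 to 51.9 CPM in 3 WT libraries, but at 424 CPM in WT replicate 2. The part of these markers in the results below was not tested.

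Most of the metabolic genes had higher fitted values in HET, but most shifts were small and none passed the test. Of 45 genes, 35 had a log2 fold change (HET over WT) above 0 and 10 below 0, where 49.9% of all genes tested were above 0. The genes were chosen with earlier results of these data known. Their shares beside those of all genes are therefore description and carry no test. The median log2 fold change was 0.16 over the 45 genes and -0.0014 over all genes. At an adjusted p under 0.05 in edgeR's quasi-likelihood test 0 of the 45 were called, against 0.0235% of all genes tested (3 genes, each lower in HET). At an unadjusted p under 0.05 there were 8, Tpi1, Gapdh, Eno1, Ldha, Slc16a1, Idh3a, Suclg1 and Shmt1, all with higher values in HET, and 0 with lower values. The same limit took 3.34% of all genes tested in the HET-higher direction and 3.88% in the other. DESeq2 called 1 of the 45, Tpi1, higher in HET, as were 0.154% of its 24064 genes. That set includes low-count genes outside the 12744 tested in edgeR, so its share is not over like genes. The unadjusted count was 4 without HET replicate 4, and 12 without HET replicate 1 or without WT replicate 2.

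**Figure D1:**
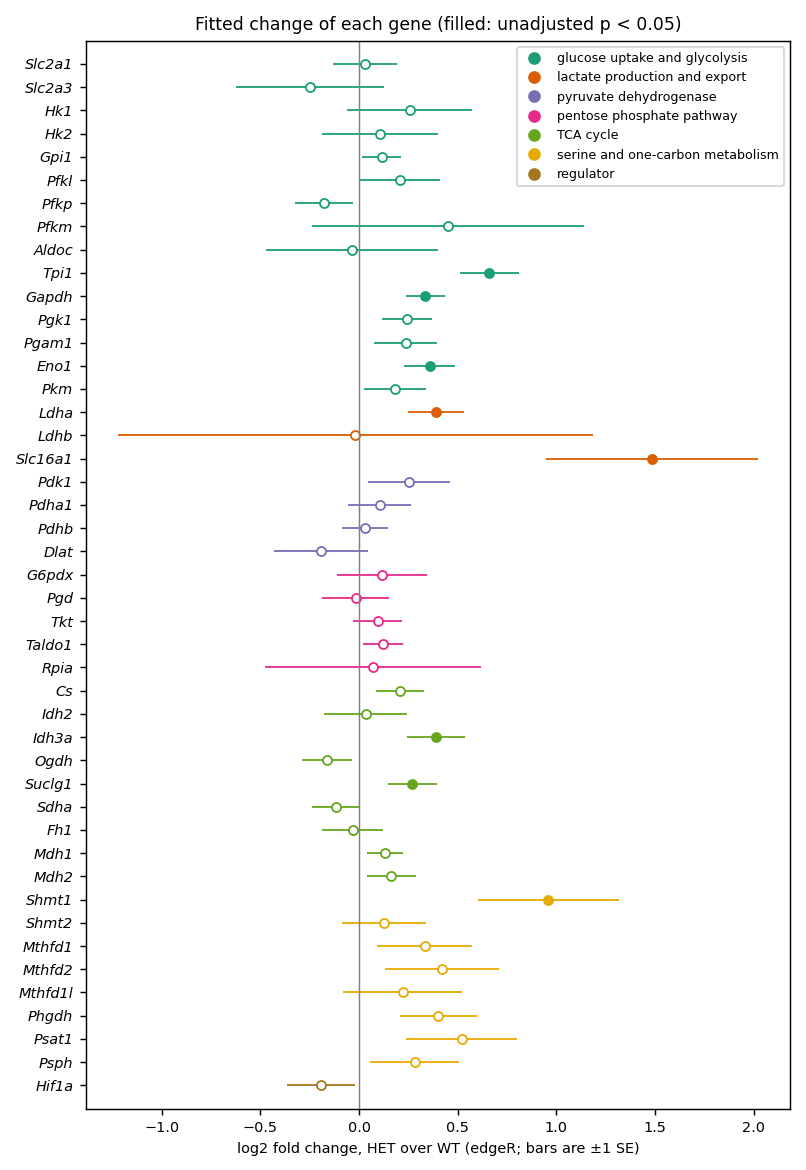
Fitted log2 fold change of each of the 45 tested genes, HET over WT, on the x axis, with bars of 1 standard error (SE) and colors by role; filled points have an unadjusted p under 0.05 in edgeR. All 8 filled points lie to the right of 0, and 35 of 45 points do.

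Upstream sequences of some of the genes are shown first, since their letters bear on how HIF1A and MYC are known to act. They are the 250 bases before a RefSeq start site on GRCm38.p6, 5′ to 3′ on the gene's strand, and the windows shown hold no exon base of GENCODE M21. Capitals mark ACGTG on either strand, including CACGTG, which contains it. Pgk1 was chosen for these letters, so the windows shown do not stand for the list. ACGTG was found in 17 of the 45 genes with a window. Gapdh (chr6:125165774-125166023, minus strand) is shown as the gene with the highest level, Ldha (chr7:46845554-46845803, plus strand) and Slc16a1 (chr3:104638414-104638663, plus strand) as genes of lactate production and export that had higher values in HET, Pgk1 (chrX:106186850-106187099, plus strand) as a glycolytic gene with ACGTG and Hif1a (chr12:73907617-73907866, plus strand) as the factor itself.
Gapdh: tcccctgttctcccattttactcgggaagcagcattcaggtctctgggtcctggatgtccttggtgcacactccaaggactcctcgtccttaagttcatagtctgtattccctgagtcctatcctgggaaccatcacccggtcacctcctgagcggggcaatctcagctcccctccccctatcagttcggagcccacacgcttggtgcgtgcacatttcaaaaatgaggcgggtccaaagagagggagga
Ldha: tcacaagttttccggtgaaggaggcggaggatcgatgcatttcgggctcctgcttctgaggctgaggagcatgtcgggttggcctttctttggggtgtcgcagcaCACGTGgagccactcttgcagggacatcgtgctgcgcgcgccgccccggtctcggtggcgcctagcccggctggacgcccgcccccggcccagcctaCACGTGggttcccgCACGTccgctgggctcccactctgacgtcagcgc
Slc16a1: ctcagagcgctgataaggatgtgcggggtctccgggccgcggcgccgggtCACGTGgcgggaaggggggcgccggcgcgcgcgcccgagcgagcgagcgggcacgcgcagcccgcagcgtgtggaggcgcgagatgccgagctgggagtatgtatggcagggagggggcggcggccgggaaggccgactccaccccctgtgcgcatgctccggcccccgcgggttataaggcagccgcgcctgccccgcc
Pgk1: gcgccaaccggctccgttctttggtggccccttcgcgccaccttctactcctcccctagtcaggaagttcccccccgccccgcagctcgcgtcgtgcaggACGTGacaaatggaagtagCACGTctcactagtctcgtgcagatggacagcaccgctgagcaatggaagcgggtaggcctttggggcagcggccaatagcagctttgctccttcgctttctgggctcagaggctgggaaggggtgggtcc
Hif1a: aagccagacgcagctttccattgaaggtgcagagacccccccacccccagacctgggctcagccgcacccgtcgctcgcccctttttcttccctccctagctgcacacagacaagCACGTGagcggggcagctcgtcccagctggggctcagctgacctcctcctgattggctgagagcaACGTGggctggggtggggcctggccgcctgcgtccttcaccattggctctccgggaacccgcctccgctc

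In the Ldha window shown CACGTG began 145 and 48 bases before the start site, with a further ACGTG on the minus strand 34 bases before it. Another Ldha window (chr7:46846832-46847081), not shown, held no CACGTG or ACGTG and 1 GCGTG, 59 bases before its start site. Slc16a1 held CACGTG at 200 bases and Hif1a at 135 bases before the start site. Pgk1 had ACGTG at 150 and 131 bases, and Gapdh had none but 2 GCGTG, at 54 and 44 bases, which are not capitalized. The Tpi1 window (chr6:124814159-124814408, minus strand), of which 138 bases lie in annotated exons and which is therefore not printed, held none of the 3 motifs. Windows were found for 45 of the 47 genes, without Slc2a3 and Idh3a. On either strand and in any window of a gene, CACGTG was present in 11.1% of these genes and 6.86% of 27025 genes with a window. ACGTG was present in 37.8% and 18.5%, and GCGTG in 71.1% and 30.9%. There were 64 windows for these 45 genes and 32851 windows for the 27025. The 27025 were not limited to genes tested in these cells, so the shares are not over like genes. A chromosome that holds none of the 47 genes was left out. The median GC content of the windows was 59.6%, against 52.4% for all windows. Of the 8 genes with an unadjusted p under 0.05, 7 had a window, and CACGTG was in 2 of these (Ldha and Slc16a1), ACGTG in the same 2 and GCGTG in 6. Of the other 36 tested genes with a window, 3 held CACGTG, 13 ACGTG and 26 GCGTG. These are matches of letters and not binding sites.

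Levels between genes were compared as CPM per kilobase of exon, since the deposited TPM could not be used for this. The length implied by count over TPM followed the genomic span of a gene with introns (Spearman 0.95 across 7806 genes) more closely than its exon length (0.60), so that TPM understates long genes. Per kilobase, Gapdh was the most abundant of 46 genes at 231 ± 38.4 CPM per kb (SD, n = 8 libraries), followed by Ldha at 207 ± 47.3 and Eno1 at 130.1 ± 27.1. The values of Gapdh and Ldha lie within their spread, as do those of Eno1 and Taldo1 (119 ± 11.4). Exon length here merges all annotated exons of a gene, so the order depends on the annotated transcripts as well as on counts. Eno1 had 5.38 kb and means of 786 CPM in HET and 613 CPM in WT. Taldo1 had 2.17 kb and means of 270 CPM in HET and 248 CPM in WT. Aldoa is not among the 46 genes. A row named Aldoa-1 had means of 660 CPM in HET and 602 CPM in WT, and without an assigned exon length its place in the order is not known. The lowest were Ldhb at 1.01 ± 0.97, Pfkm at 0.85 ± 0.50 and Slc16a3 at 0.12 ± 0.23 CPM per kb. Thus Ldha, the lactate dehydrogenase subunit that favors lactate formation, was far above Ldhb, the heart-type subunit, and among phosphofructokinases Pfkl (10.4 ± 2.46) and Pfkp (6.64 ± 0.97) lay above the muscle form Pfkm. By the deposited TPM the same genes stood at both ends of the order, with Eno1 above Ldha. In the one-carbon genes the scales differed most for Mthfd1l, at 7.05 ± 2.40 CPM per kb but only 0.65 TPM.

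**Figure D2:**
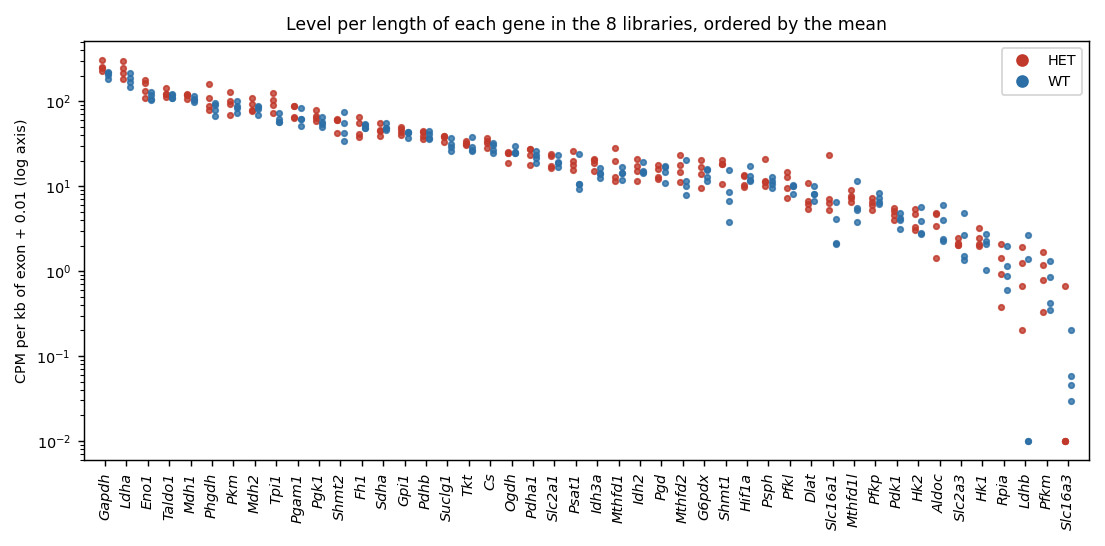
CPM per kilobase of exon (log axis, 0.01 added) for each of 46 genes in the 4 HET and 4 WT libraries, 1 point per library, ordered by the mean. Gapdh and Ldha head the order at 231 and 207 CPM per kb on average, and Slc16a3 closes it at 0.12.

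Glucose carriers and the first steps of glycolysis showed no common direction. Slc2a1, the main carrier of activated lymphocytes, had a log2 fold change of 0.03 (SE 0.16), and Slc2a3, a high-affinity carrier, -0.25 (SE 0.37). Hexokinases Hk1 (0.26, SE 0.32) and Hk2 (0.11, SE 0.29) trap glucose in the cell, Gpi1 (0.11, SE 0.10) isomerizes it, and Pfkl (0.21, SE 0.20) and Pfkp (-0.18, SE 0.15) commit it to glycolysis. Of the 9 tested genes from uptake to Aldoc, 6 lay above 0 and 3 below, with a median of 0.11, and 0 had an unadjusted p under 0.05. The adjusted p of these 9 was 0.851 or more in edgeR.

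The triose steps, from Tpi1 to Pkm, all lay above 0 (6 of 6), with a median log2 fold change of 0.29. Of these 6, 3 had an unadjusted p under 0.05. The split of glycolysis after Aldoc is not among the roles by which the genes were listed, and earlier results were known. The counts on its sides are therefore description and carry no test. Over the whole role of glucose uptake and glycolysis, 12 of 15 tested genes lay above 0 and 3 below. The median there was 0.21, and 3 had an unadjusted p under 0.05, all from Tpi1 on. Tpi1 interconverts the triose phosphates. Its level in HET libraries was 200.4, 246, 286 and 345 CPM, and in WT libraries 155, 198, 156 and 172 CPM. Every HET library was above every WT library, the nearest being HET replicate 1 and WT replicate 2. The mean of Tpi1 was 269 ± 61.3 CPM for HET and 170.2 ± 20.1 CPM for WT (SD, n = 4 each). The fitted log2 fold change was 0.66 (SE 0.15, adjusted p = 0.234 in edgeR). With DESeq2 the adjusted p was 0.0144, and with edgeR without a filter on low counts Tpi1 was also called.

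Gapdh, which oxidizes glyceraldehyde 3-phosphate, was the other gene whose groups did not overlap. HET libraries had 929, 1038, 1026 and 1269 CPM and WT libraries 882, 906, 745 and 841 CPM, so the groups were apart by less than the spread within either. The means were 1065 ± 144 CPM and 844 ± 71.1 CPM (SD, n = 4 each), with a log2 fold change of 0.34 (SE 0.097, adjusted p = 0.428). Non-overlap with HET higher was seen in 2 of the 45 genes and in 1.99% of all genes tested. Non-overlap with HET lower was seen in 0 of the 45 and in 2.62% of all. Gapdh has 65 near-identical copies in the table that may share its reads. With them summed in, the HET over WT ratio of mean CPM moved from 1.26 to 1.28, and the groups stayed apart (1009 to 1372 against 790 to 960 CPM), a check added after the data were seen.

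Eno1, the enolase that forms phosphoenolpyruvate, is named after its values were seen. It had 594, 714, 880 and 958 CPM in HET and 630, 685, 578 and 562 CPM in WT. HET replicates 2 to 4 were above all WT libraries and HET replicate 1 was within them. Its log2 fold change was 0.36 (SE 0.13, adjusted p = 0.576). The remaining genes of this stretch were Pgk1 (0.24, SE 0.13), Pgam1 (0.24, SE 0.16) and Pkm (0.18, SE 0.16), the last of which makes pyruvate. The mean log2 CPM of the 6 genes was 8.20, 8.43, 8.56 and 8.81 in HET and 8.13, 8.37, 8.03 and 8.18 in WT, so HET replicate 1 lay below WT replicate 2.

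For lactate, Ldha gave 603, 719, 804 and 978 CPM in HET and 626, 710, 481 and 551 CPM in WT. The groups overlapped through HET replicate 1, and the log2 fold change was 0.39 (SE 0.14, adjusted p = 0.600). Slc16a1, the lactate carrier MCT1, is also named after its values were seen, with 31.5, 23.3, 28.3 and 102 CPM in HET and 18.2, 9.55, 28.9 and 9.29 CPM in WT. HET replicate 4 was more than 3 times as high as any other library, and the other HET libraries overlapped WT. Its log2 fold change was 1.49 (SE 0.54, adjusted p = 0.601), and without HET replicate 4 its unadjusted p no longer passed. Slc16a3, the carrier MCT4 of glycolytic cells, was at 3.54 CPM in HET replicate 1 and at 0 in the other HET libraries, and no WT library had more than 1.02 CPM. Ldhb was at 0 in WT replicates 3 and 4 and at no more than 4.17 CPM elsewhere (log2 fold change -0.02, SE 1.20).

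**Figure D3:**
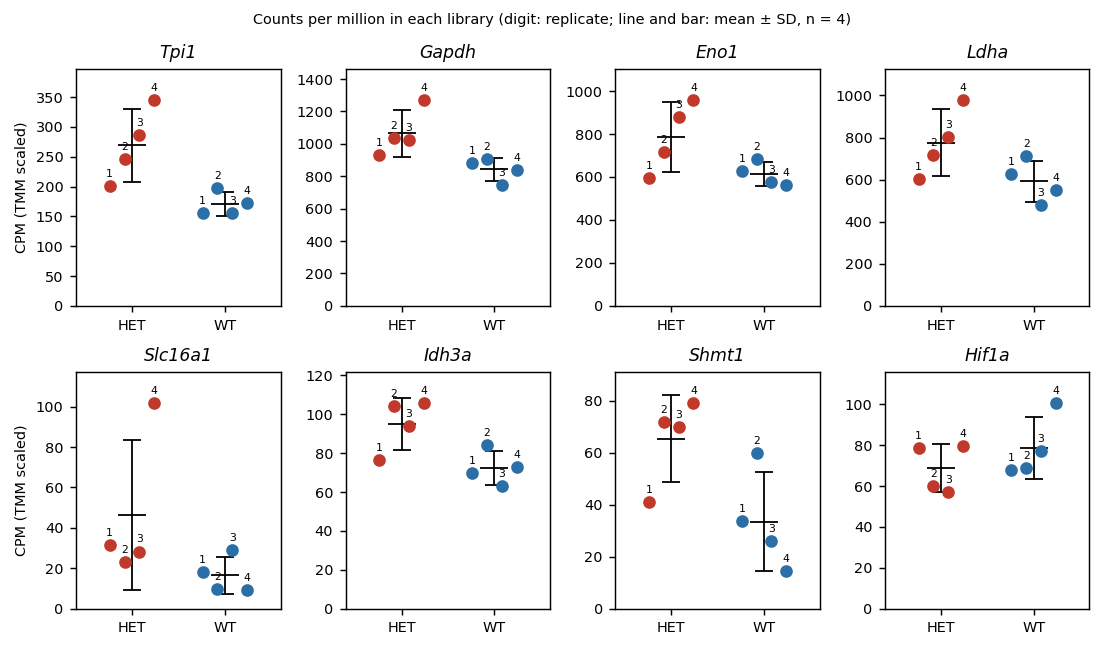
CPM of 8 genes in each library (points, with the replicate number), with the mean and SD of each group of 4; every y axis starts at 0. Tpi1 and Gapdh separate the groups, Slc16a1 is high in HET replicate 4 alone at 102 CPM, and Hif1a is highest in WT replicate 4.

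Pyruvate dehydrogenase turns pyruvate into acetyl-CoA. Of its 4 genes, 3 lay above 0 and 1 below, with a median log2 fold change of 0.07. Pdk1, the kinase that inhibits the complex, had the lowest p of the 4, with 42.9, 30.7, 39.6 and 35.6 CPM in HET and 32.6, 37.2, 23.98 and 31.0 CPM in WT. The groups overlapped (log2 fold change 0.25, SE 0.21, adjusted p = 0.848), and without WT replicate 3 the value was 0.15. The catalytic subunits Pdha1 (0.11, SE 0.16) and Pdhb (0.03, SE 0.12) and the acetyltransferase Dlat (-0.19, SE 0.24) were within about 1 SE of 0.

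The 5 pentose phosphate genes had a median log2 fold change of 0.09, with 4 above 0, 1 below, and 0 at an unadjusted p under 0.05. Taldo1, transaldolase, had the lowest p, with 262, 244, 313 and 262 CPM in HET and 237, 263, 234 and 260 CPM in WT. Its groups overlapped (log2 fold change 0.12, SE 0.10, adjusted p = 0.850), and without HET replicate 3 the value was 0.05. G6pdx, the entry enzyme, was at 0.12 (SE 0.23) and Rpia at 0.07 (SE 0.55).

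In the TCA cycle 6 of 9 genes lay above 0 and 3 below, with a median of 0.13, and 2 had an unadjusted p under 0.05, both with higher values in HET. Idh3a, the catalytic subunit of the NAD-dependent isocitrate dehydrogenase, had 76.7, 104, 93.8 and 106 CPM in HET and 69.9, 84.0, 63.2 and 72.6 CPM in WT. HET replicate 1 lay among the WT libraries and the other HET libraries lay above them. The log2 fold change was 0.39 (SE 0.15, adjusted p = 0.600). Suclg1, a succinyl-CoA ligase subunit named after its values were seen, was at 0.27 (SE 0.12, adjusted p = 0.672). Ogdh (-0.16, SE 0.12), Sdha (-0.12, SE 0.12) and Fh1 (-0.03, SE 0.15), which carry out the steps around them, were the 3 below 0.

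The serine and one-carbon genes were all above 0 (8 of 8), with a median log2 fold change of 0.37, and 1 had an unadjusted p under 0.05. Shmt1, the cytosolic enzyme that moves a carbon from serine to folate, had 40.9, 71.6, 69.8 and 79.0 CPM in HET and 33.5, 59.7, 26.1 and 14.6 CPM in WT. HET replicate 1 was below WT replicate 2, and the other HET libraries were above all WT libraries. The means were 65.3 ± 16.8 CPM and 33.5 ± 19.1 CPM (SD, n = 4 each), with a log2 fold change of 0.96 (SE 0.36, adjusted p = 0.601). Its mitochondrial counterpart Shmt2 was at 0.13 (SE 0.21). The mitochondrial Mthfd2 (0.42, SE 0.29) and Mthfd1l (0.22, SE 0.30) and the cytosolic Mthfd1 (0.33, SE 0.24) carry the folate-bound carbon onward. The 3 enzymes of serine synthesis were Phgdh (0.40, SE 0.20), Psat1 (0.52, SE 0.28) and Psph (0.28, SE 0.23). Psph shares 452 exon bases with the antisense-strand gene Cct6a, and without a stated strand setting their reads cannot be told apart. The same holds for Pfkp with Pitrm1 (748 bases), Gpi1 with Gm26762 (741 bases), Pdha1 with Map3k15 (603 bases) and G6pdx with Ikbkg (418 bases). It also holds for shorter overlaps of Shmt1, Gapdh and Tpi1 (184, 68 and 34 bases). Overlaps that include a gene on the same strand were present for Pkm with Gm49759 (767 bases) and Hif1a with Gm15283 and Gm49321 (478 bases). Pfkm had such an overlap with Gm26513 and Senp1 (359 bases). Rpia, with 447 counts over all libraries, matches 15 other genes in the table over at least 200 bases, and these held 23573 counts, so its values are uncertain.

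The ratio of paired forms within a library does not depend on library size. The log2 TPM ratio of Shmt1 to Shmt2 was -3.64, -3.38, -3.39 and -3.27 in HET and -3.94, -3.93, -3.99 and -5.52 in WT, so the groups did not overlap. Its mean was 0.93 higher in HET and 0.54 higher without WT replicate 4, and only the difference between libraries can be read, because of the lengths behind TPM. The ratios of Slc2a1 to Slc2a3, Hk1 to Hk2, Pfkl to Pfkp, Mdh1 to Mdh2 and Mthfd1 to Mthfd1l overlapped between groups. Their differences of means, HET minus WT, were 0.09, 0.18, 0.34, -0.02 and -0.08 on the log2 scale. When 1 library was left out, a check added after the data were seen, that of Pfkl to Pfkp was 0.24 to 0.51, and each of the other 4 changed sign in at least 1 case. These ratios carry no test.

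Hif1a itself had 78.5, 60.2, 56.9 and 79.8 CPM in HET and 67.9, 68.8, 77.4 and 101 CPM in WT. The groups overlapped, and the log2 fold change was -0.19 (SE 0.17, adjusted p = 0.862). Without WT replicate 4 this value was -0.05, and without HET replicate 3 it was -0.11.

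Libraries of the same group differed from each other. The mean log2 CPM over the 45 genes was 6.23, 6.31, 6.42 and 6.62 in HET and 6.19, 6.34, 6.09 and 6.09 in WT. WT replicate 2 was above 2 of the HET libraries, and HET replicate 4 was the highest. The means were 6.40 ± 0.17 for HET and 6.18 ± 0.12 for WT (SD, n = 4 each), a difference of 0.22, which was 0.15 without HET replicate 4. HET replicate 4 was the highest library for 23 of the 45 genes (51.1%), and for 13.5% of all genes tested. Without it the median log2 fold change of the 45 genes was 0.08.

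**Figure D4:**
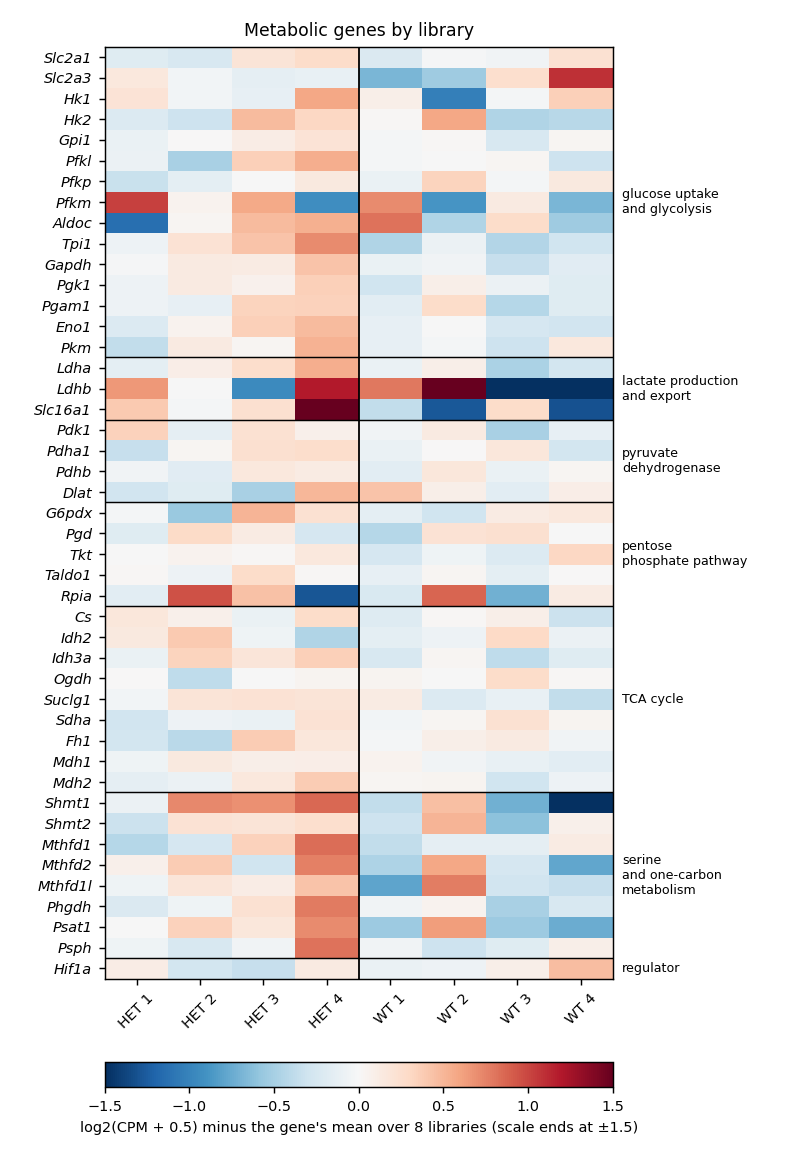
Each of the 45 tested genes (rows, by role) in each library (columns), as log2 CPM minus the gene's mean over the 8 libraries; red is above and blue below that mean. Red gathers in HET replicate 4, the highest library for 23 of 45 genes, and in the serine and one-carbon rows also in WT replicate 2.

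The cell cycle markers, like the metabolic genes, had a higher mean score in HET, with overlapping groups. Their mean log2 CPM over 22 genes was 5.72, 5.81, 6.12 and 6.51 in HET and 5.80, 5.72, 5.36 and 4.76 in WT. In HET the libraries stand in the same order by both scores. In WT only replicates 1 and 2 change places between the scores. They were at 6.19 and 6.34 by the metabolic score and at 5.80 and 5.72 by the cell cycle score. Of the 22 markers, 21 had a log2 fold change above 0, and 6 had an unadjusted p under 0.05, all higher in HET. Over all genes tested that limit took 3.34% in this direction and 3.88% in the other. B cell markers went the other way, with 6 of 8 at an unadjusted p under 0.05 and lower in HET. Naive B cell markers did too, with 0 of 7 above 0 and 5 lower at that limit. Of 5 tested germinal center markers 4 lay above 0, 3 of them at that limit, while Bcl6 was lower (log2 fold change -0.50, SE 0.21). All 9 tested T cell markers lay above 0, with a median log2 fold change of 0.48 and 0 at that limit. In edgeR no marker of these lists passed the adjusted threshold, while DESeq2 called Ccnb2, Rrm2, Cd74, Cd22, Klf2 and Cd38. The part of the share of dividing, naive or germinal center B cells in the metabolic values was not tested. In sorted pools fewer cells of a kind and less RNA per cell cannot be told apart.

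**Figure D5:**
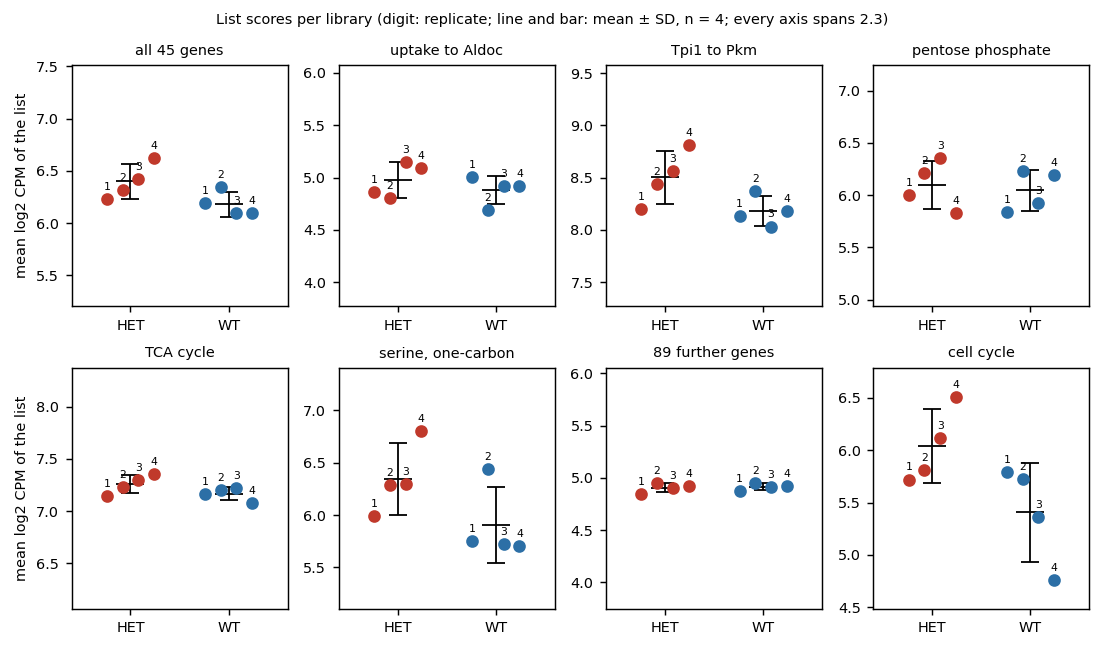
Mean log2 CPM per library (points, with the replicate number) of the 45 genes, of 5 groups of them, of 89 further genes of the same pathways and regulators, and of 22 cell cycle markers, with mean and SD of each group of 4; every y axis spans the same range. HET replicate 4 is highest for the 45 genes (6.62) and the cell cycle (6.51), and the 89 further genes lie between 4.84 and 4.95 in all libraries.

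Further genes of these pathways were read from a list of 119, of which 106 had a row and 89 were tested. Of the 89, 52 lay above 0 and 37 below, with a median log2 fold change of 0.04. At an unadjusted p under 0.05 there were 3 with higher and 2 with lower values in HET, and 0 passed the adjusted threshold in edgeR. These shares, 3.37% and 2.25%, were near or below those of all genes tested (3.34% and 3.88%). Among the 3 were Me2, the mitochondrial malic enzyme (0.31, SE 0.13), and Tyms, thymidylate synthase (0.60, SE 0.27), the latter named after its values were seen. The 2 with lower values were Slc2a6 and the mitophagy gene Bnip3l (-0.28, SE 0.13). Slc2a6, a lysosomal hexose carrier, had 6.99, 8.94, 13.03 and 12.7 CPM in HET and 16.2, 34.2, 24.2 and 28.4 CPM in WT. All HET libraries were below all WT libraries (log2 fold change -1.31, SE 0.32, adjusted p = 0.269 in edgeR and 0.0152 in DESeq2). The groups also did not overlap for Me2 and Suclg2 (0.28, SE 0.17), higher in HET, and for Mat2b (-0.20, SE 0.11), lower in HET. With 2 of 89 in each direction, non-overlap was about as frequent as among all genes tested (1.99% and 2.62%). Beside them, Myc had 219, 226, 230.1 and 288 CPM in HET and 229.7, 181, 119 and 235 CPM in WT, which overlapped (0.33, SE 0.18, adjusted p = 0.740).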

How the data were processed

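The authors adapted SMART-Seq2 to about 200 cells, aligned reads to GRCm38 (mm10) with HISAT2 2.2.1 and counted reads in genes with HTSeq. Which annotation and strand setting they used is not given in the sources used here. Deposited counts are whole reads per gene symbol, and the deposited TPM scale those counts by a length that is fixed for each gene. Counts were tested with edgeR 4.0.16 in R 4.3.3 (filterByExpr, TMM, robust quasi-likelihood test, group only, Benjamini-Hochberg over 12744 genes, which held 99.7% of counts). CPM are counts per 1000000 after TMM scaling; scores are mean log2 CPM with a prior count of 2. The common biological coefficient of variation was 0.391. Between repeats of a group the chi-square of counts was 12.7 to 29.1 times its degrees of freedom, and no library was a duplicate. Positions, exon lengths and copies (at least 95% identity over 200 bases, BLAST 2.17.0) came from GENCODE M21.

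Members and lists were chosen with earlier results of these data known. Genes named with values are those called, those whose groups do not overlap, the one with the lowest p in each of 7 roles, Hif1a, paired forms and the ends of the level order. Alternatives were DESeq2 1.42.0, RLE factors, other filters, a replicate block, limma 3.58.1 (voom, and trend on log2 TPM), another prior count and leaving out libraries. The scripts were tested on simulated data. The reads carry no molecular identifiers, so the value of 3 counts covers counting error only. A row named Aldoa-1 falls outside the symbol rule and is not counted as Aldoa. The values of 1 further pathway gene are not reported here.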

Additional observations from a re-analysis of the deposited data

Results flagged for a closer look

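Among 96 groups of 4 libraries examined (CPM of genes given by library, summed markers, scores and ratios), 11 held a library far from the other 3, with a gap to its nearest neighbor above Dixon's 95% critical share of the group's range. Chance gives about 1 in 20 such groups.

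Of the metabolic genes, the lactate carrier Slc16a1 was at 101.8 CPM in HET replicate 4 and at 23.3 to 31.5 CPM in the other HET libraries. Slc16a3 was at 3.537 CPM in HET replicate 1 and at 0 in the other HET libraries, and at 1.016 CPM in WT replicate 2 and at most 0.252 CPM in the other WT libraries. Suclg1 was at 150.7 CPM in HET replicate 1 and at 177 to 179.9 CPM in the others. In the mean log2 CPM of the serine and one-carbon genes, WT replicate 2 was at 6.442 and the other WT libraries at 5.70 to 5.752. In the log2 TPM ratio of Hk1 to Hk2, HET replicate 3 was at -2.007 and the other HET libraries at -1.121 to -0.976. In the ratio of Shmt1 to Shmt2, WT replicate 4 was at -5.52 and the other WT libraries at -3.994 to -3.926. This library also had the lowest cell cycle score, 4.76. Myc was at 288.1 CPM in HET replicate 4, the library with the highest metabolic and cell cycle scores, and at 219 to 230.1 CPM in HET replicates 1 to 3.

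Among marker sums, B cell markers were at 24089 CPM and myeloid markers at 424.4 CPM in WT replicate 2, where the other WT libraries had 26445 to 26553 and 20.5 to 51.9 CPM. Antibody-secreting cell markers were at 1980 CPM in HET replicate 1 and at 223 to 469.7 CPM in the other HET libraries. The part of these markers in the metabolic values was not tested.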

How the results depend on the processing

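The count of all genes called was 3 in edgeR and moved to 88 with DESeq2, 38 without a filter on low counts, 7 with a mean of at least 50 counts, 6 with limma-voom, 0 and 1 with limma-trend on log2(TPM + 1) and log2(TPM + 0.1), 0 with the replicate block, and 1 to 6 when 1 library was left out. Of the metabolic genes, 1 (Tpi1) was called with DESeq2 and 1 (Tpi1) without a filter, and 0 under the other alternatives. The number with higher values in HET at an unadjusted p under 0.05 was 8, and was 4 and 4 with limma-trend and 4 to 12 when 1 library was left out (4 without HET replicate 4). With limma-trend on log2(TPM + 1) the median log2 fold change of all genes was -0.03 and that of the metabolic genes 0.09. When 1 library was left out, 31 to 37 genes lay above 0, the median log2 fold change was 0.08 to 0.23, and the score difference was 0.148 to 0.279. For the 8 genes named by rule, 134 of 136 values kept their direction and side of the threshold, 2 (Tpi1) passed it and 0 reversed. The cause of these changes was not tested. Replicate numbers did not pair the libraries (correlations of same-numbered deviations -0.051, 0.013, 0.003 and -0.026); with the replicate block 8 metabolic genes had an unadjusted p under 0.05, 7 of them as without it.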

Other observations

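Targets of HIF1A outside metabolism were read beside the glycolytic genes. Of 12 listed, 9 were tested, with 3 above 0 and 6 below and a median log2 fold change of -0.05, and 0 passed the adjusted threshold in edgeR. Bnip3l, a mitophagy receptor, had 84.2, 79.7, 85.5 and 71.3 CPM in HET and 105, 105, 85.3 and 94.8 CPM in WT, a log2 fold change of -0.28 (SE 0.13, adjusted p = 0.667). Vegfa and Car9 were at or near 0 in every library, with no more than 0.88 CPM.

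The row named Aldoa-1, outside the symbol rule, had 540.3, 680.5, 650.5 and 769 CPM in HET and 659.7, 641, 564 and 543 CPM in WT, with a log2 fold change of 0.13 (SE 0.11, adjusted p = 0.841). GENCODE M21 gives the name Aldoa to 2 genes on chromosome 7, and which of them the row counts was not tested.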
